A study of Mus musculus with 8 samples.

Results

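Box H/ACA snoRNAs are the sequences listed under the name Snora in the small RNA tables, and 34 of the 489 listed sequences carried that name. All 34 were present in both tables, among 475 sequences listed for Hepa 1-6 cells and 467 listed for primary hepatocytes. The remaining sequences were tRNAs and box C/D snoRNAs (Snord). The comparison used 4 small RNA libraries, with 1 library per group and therefore no replicate check: Hepa 1-6 mouse hepatoma cells carrying a control vector, Hepa 1-6 cells carrying an shRNA against Kap1 (Kap1 KD), primary mouse hepatocytes labelled wild type, and primary mouse hepatocytes labelled Kap1 Knock-out (Kap1 KO). The Hepa 1-6 cells were cultured and transduced before collection, whereas the hepatocytes were processed straight after purification. Ribosomal RNA was depleted with a different kit in each cell type, so cell type and kit cannot be told apart. The age of the mice and the Cre driver of the Kap1 deletion were not given in the sources used here. Poly(A)-selected mRNA-seq of Hepa 1-6 cells, with 2 samples per group, gave the mRNAs of the H/ACA proteins and of the genes that host the snoRNAs. Kap1 (gene Trim28) is a co-repressor that binds DNA through KRAB zinc finger proteins, and the comparisons ask whether these snoRNAs differ where it is depleted.

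Box H/ACA snoRNAs guide the conversion of uridine to pseudouridine in ribosomal and spliceosomal RNAs. Each folds into hairpins joined by a hinge that carries the H box (ANANNA) and ends shortly after an ACA triplet, and each is bound by dyskerin (Dkc1, the pseudouridine synthase), Nop10, Nhp2 and Gar1. In mammals most are cut out of introns of host genes, many of which encode ribosomal proteins or translation factors.

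The names were checked against these boxes. Of the 34 members, 30 had a locus under the same symbol in the gene annotation of build mm9 (NCBIM37), and the sequences of 29 were read from that genome. An ANANNA match lay in the middle of 27 of the 29, between 35% and 65% of the length, against 19 of 53 box C/D snoRNAs read the same way. Most box C/D snoRNAs are shorter, so this window held fewer bases in them and left less room for a random match. An ACA lay within the last 9 bases of 27 of the 29, against 6 of 53 box C/D snoRNAs, and 25 of the 29 had both. Both motifs were searched on the strand of the snoRNA only. Snora44 and Snora81 held no ACA in that window, and Snora65 and Snora78 held no ANANNA in theirs. The members were between 120 and 195 bases long, with a median of 131, and their GC content ran from 38.0% to 64.1%.

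The sequences of 6 members that the results turn on are shown 5′ to 3′ on their own strand. Capitals mark the ANANNA match nearest the middle and the last ACA in the window. In Snora41 another ACA overlaps the marked one just upstream, and which of them is the box was not tested. Snora28 was the member with the highest Kap1 KD to control ratio, and Snora41 the one with the lowest Kap1 KO to wild type ratio. Snora16a, Snora44 and Snora61 lie in that order on 1 strand of the non-coding host Snhg12 and differed in balance between the cell types. Snora52 was the leading member in the Hepa 1-6 control.
Snora28: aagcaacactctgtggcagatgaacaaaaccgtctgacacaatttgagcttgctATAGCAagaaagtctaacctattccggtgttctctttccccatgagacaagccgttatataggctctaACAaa
Snora41: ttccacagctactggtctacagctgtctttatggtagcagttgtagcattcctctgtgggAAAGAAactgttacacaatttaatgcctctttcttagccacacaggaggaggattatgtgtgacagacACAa
Snora16a: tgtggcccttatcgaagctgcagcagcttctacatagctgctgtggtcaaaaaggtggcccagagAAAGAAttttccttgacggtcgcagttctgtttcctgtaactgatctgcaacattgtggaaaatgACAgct
Snora44: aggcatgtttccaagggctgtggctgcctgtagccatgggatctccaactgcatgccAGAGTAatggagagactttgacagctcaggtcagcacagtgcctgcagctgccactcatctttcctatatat
Snora61: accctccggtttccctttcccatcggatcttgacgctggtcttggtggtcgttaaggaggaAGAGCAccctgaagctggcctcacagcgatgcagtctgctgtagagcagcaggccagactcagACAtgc
Snora52: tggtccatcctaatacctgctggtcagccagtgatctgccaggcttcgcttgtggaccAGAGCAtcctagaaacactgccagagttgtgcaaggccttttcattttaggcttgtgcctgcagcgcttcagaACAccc

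In mm9, Snora28 lies at chr12:112779152-112779278 (plus strand) in an intron of Eif5, and Snora41 at chr1:63225578-63225709 (plus strand) in an intron of Eef1b2. Snora16a lies at chr4:131865380-131865515 (plus strand) in an intron of Snhg12. Snora44 at chr4:131865856-131865984 and Snora61 at chr4:131866155-131866284, both on the plus strand, each overlap an exon of an annotated Snhg12 transcript. Snora52 lies at chr7:148634702-148634838 (plus strand) and overlaps an annotated exon of Rplp2. Each of the 30 located members had exactly 1 enclosing host gene, giving 27 distinct hosts, and 20 of the 30 were intronic by the annotation while 10 overlapped an annotated exon. Ribosomal protein genes hosted 11 members, other translation genes 4, non-coding genes 6 and other coding genes 9, and the remaining 4 (Snora15, Snora19, Snora24 and Snora26) were not located.

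The listed lengths include a flank of 200 bases on each side of a snoRNA. Snora44 and Snora61 are 170 bases apart, so the listed window of each covers 30 bases of the other, and reads near that edge could be counted for both. Only flanks overlapped between Snora16a and Snora44. SNORA17 is a name carried by 612 loci of the annotation, SNORA70 by 41 and SNORA61 by 15. Most other members share their name with further loci too, with 10 for SNORA5 (the name of Snora5c), 8 each for SNORA44 and SNORA24 and 6 for SNORA65. Counts of all such members are uncertain wherever reads could be split between copies.

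H/ACA snoRNAs were a small part of every library. They held 205511 of 26249204 listed counts in the Hepa 1-6 control library, which is 0.783%, and 177857 of 29223566 in Kap1 KD, which is 0.609%. In hepatocytes they held 73928 of 3028467 counts in wild type (2.44%) and 112318 of 11006899 in Kap1 KO (1.02%). Their share was lower in the Kap1-depleted library of both pairs. The share moves with every other listed sequence, and a single box C/D snoRNA held a large part of each library, with 10229138 counts of Snord12 in the Hepa 1-6 control and 1211013 counts of Snord55 in wild type hepatocytes. The median H/ACA snoRNA had 887.5 counts in the Hepa 1-6 control and 419 in wild type hepatocytes, against 36358.5 and 3183.5 for the median box C/D snoRNA. These totals cover the listed sequences and are not the depth of the libraries. The intervals below are 95% binomial intervals, Wilson for shares and exact for ratios. They cover counting error only and say nothing of the spread between cultures or mice.

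**Figure D1:**
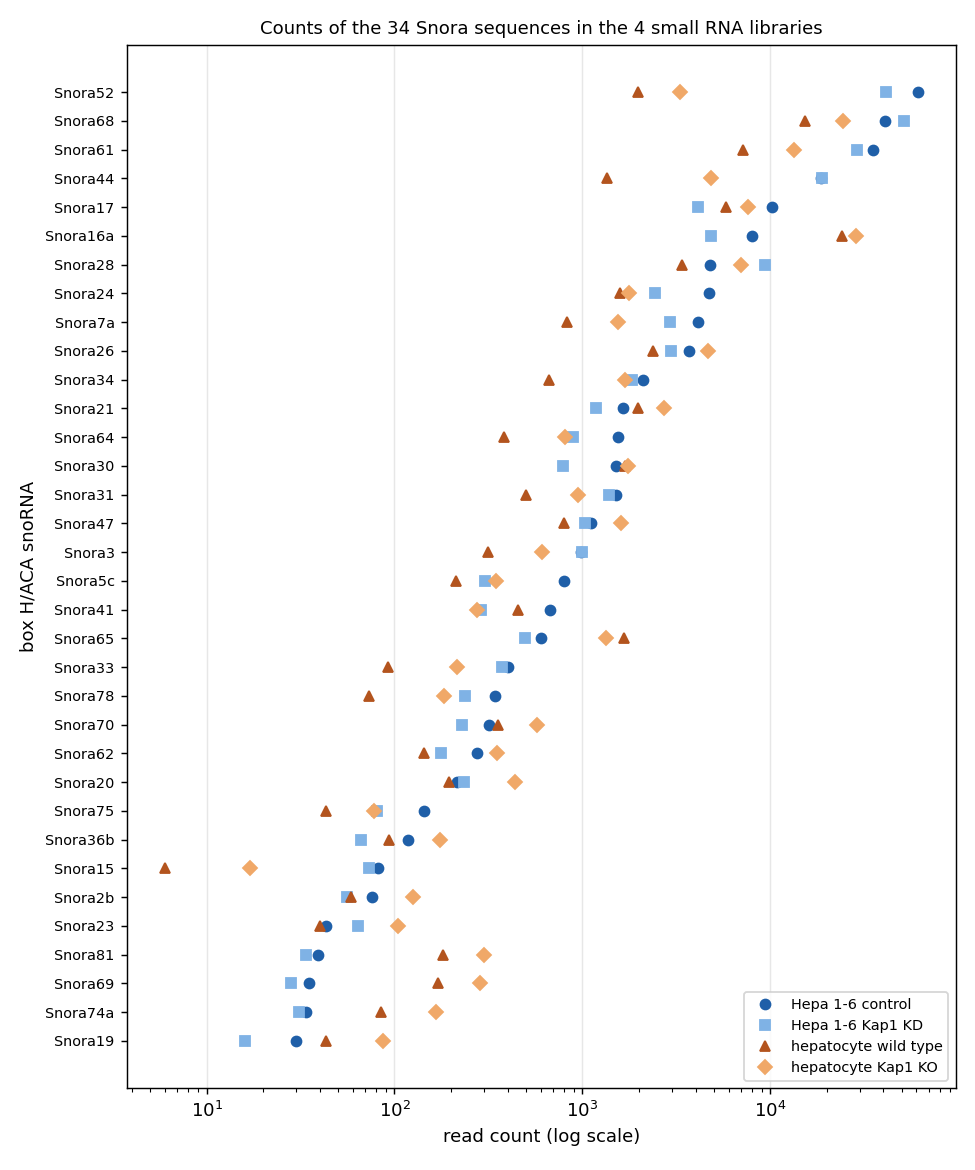
Read counts (log scale) of the 34 box H/ACA snoRNAs in the 4 small RNA libraries, 1 point per library, ordered by the count in the Hepa 1-6 control. Counts span from 6 for Snora15 in wild type hepatocytes to 61010 for Snora52 in the Hepa 1-6 control, and Snora52 and Snora44 stand lower and Snora16a higher in both hepatocyte libraries than in both Hepa 1-6 libraries. The counts are not scaled and the hepatocyte libraries held fewer listed counts, so other members such as Snora68 and Snora61 stand lower there too.

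A few members carried most of the H/ACA counts. The 5 members with the most counts held 80.6% of them in the Hepa 1-6 control, 84.1% in Kap1 KD, 75.2% in wild type hepatocytes and 72.1% in Kap1 KO, and the same 5 led each library when counts were divided by length. In the Hepa 1-6 control the leaders were Snora52, Snora68, Snora61, Snora44 and Snora17. Both hepatocyte libraries were led by Snora16a, Snora68, Snora61, Snora17 and Snora28. No member was at 0 in any library. The lowest count was 30 in the Hepa 1-6 control (Snora19), 16 in Kap1 KD (Snora19), 6 in wild type hepatocytes (Snora15) and 17 in Kap1 KO (Snora15).

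The order of the members was much alike within a cell type and less so between cell types. Across the 34 members, the Spearman correlation of the shares of H/ACA counts was 0.99 between Hepa 1-6 control and Kap1 KD, 0.97 between wild type and Kap1 KO hepatocytes, and 0.89 between Hepa 1-6 control and wild type hepatocytes. These describe the libraries, whose members share preparation, base composition and depth.

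Snora52, assigned in human to 28S rRNA and hosted by the ribosomal protein gene Rplp2, differed most in share among abundant members. Snora52 had 61010 counts in the Hepa 1-6 control, 41222 in Kap1 KD, 1975 in wild type hepatocytes and 3290 in Kap1 KO. It made up 29.7% of the H/ACA counts in the Hepa 1-6 control (interval 29.5% to 29.9%) and 2.67% in wild type hepatocytes (interval 2.56% to 2.79%), a share 11.1 times higher in the cell line. The hepatocyte libraries were both far below the Hepa 1-6 libraries.

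Snora16a showed the opposite order. It had 7962 counts in the Hepa 1-6 control, 4844 in Kap1 KD, 23972 in wild type hepatocytes and 28585 in Kap1 KO, although the hepatocyte libraries held fewer counts in all. Its share of the H/ACA counts was 3.87% in the Hepa 1-6 control (interval 3.79% to 3.96%) and 32.4% in wild type hepatocytes (interval 32.1% to 32.8%), which is 8.37 times higher. Among members with few Hepa 1-6 counts, the share in wild type hepatocytes was 13.6 times that in the Hepa 1-6 control for Snora69 (hosted by Rpl39), 12.9 times for Snora81 (Eif4a2) and 7.65 times for Snora65 (Rpl12). In all, the share was at least 2-fold higher in wild type hepatocytes for 14 members, at least 2-fold lower for 3 (Snora52, Snora44 and Snora15) and within 2-fold for 17. Snora68, assigned in human to 28S rRNA, was alike in both, with 19.8% in the Hepa 1-6 control and 20.7% in wild type hepatocytes.

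**Figure D2:**
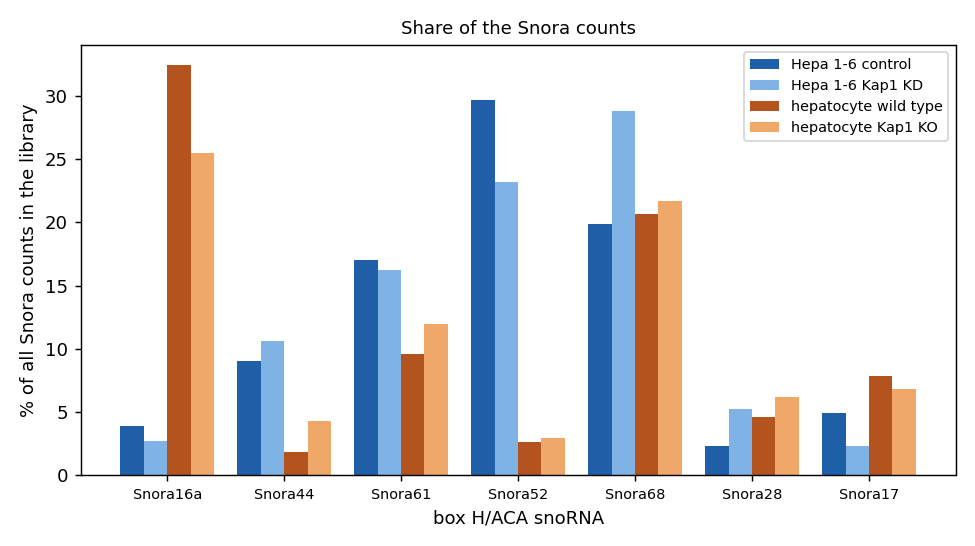
Share of all H/ACA snoRNA counts in a library (%, bars from 0) for 7 abundant members in the 4 small RNA libraries. Snora16a is high in both hepatocyte libraries (32.4% and 25.5%) and Snora52 in both Hepa 1-6 libraries (29.7% and 23.2%), while Snora68 lies between 19.8% and 28.8% in all 4.

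The 3 members of Snhg12 share 1 host gene, and their ratios within a library are free of library scaling. Together they held 30.0% of the H/ACA counts in the Hepa 1-6 control, 29.6% in Kap1 KD, 43.9% in wild type hepatocytes and 41.7% in Kap1 KO. There were 4.40 counts of Snora61 for each count of Snora16a in the Hepa 1-6 control and 5.96 in Kap1 KD, but 0.297 in wild type hepatocytes and 0.469 in Kap1 KO. The balance of these 2 members thus turned over between the cell types. Snora61 also exceeded Snora44 in every library, by a ratio of counts of 1.88 in the Hepa 1-6 control, 1.53 in Kap1 KD, 5.27 in wild type hepatocytes and 2.77 in Kap1 KO. In both pairs the Kap1-depleted library had more Snora61 per Snora16a and less Snora61 per Snora44 than its control. Reads near the shared edge of the Snora44 and Snora61 windows, or split between copies, could affect these ratios.

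For Kap1 KD against control in Hepa 1-6 cells, ratios were taken after TMM scaling, which sets the bulk of the listed sequences to no change, among the 33 members with at least 50 counts over the pair (Snora19 had fewer). The median log2 ratio of these 33 was 0.33, against 0.02 over all 339 sequences that passed, 0.59 for box C/D snoRNAs and -0.12 for the 246 tRNAs. Scaling by the totals of all listed counts lowers every log2 ratio in this pair by 0.81 and in the hepatocyte pair by 1.16, so that the median of the H/ACA snoRNAs turns to -0.47 in Hepa 1-6 cells and -0.95 in hepatocytes. Direction therefore depends on the scaling, and only differences between members do not. At least 1.5-fold higher in Kap1 KD were 6 of 33, which is 18.2% beside a background of 16.8% of all sequences, and at least 1.5-fold lower were 2 of 33, or 6.06% beside a background of 17.4%. The share at least 1.5-fold higher was thus near the background. That background pools classes that differed, with 51.7% of box C/D snoRNAs and 8.13% of tRNAs higher, and 0.0% and 23.2% lower. With totals, 1 of 33 was higher and 16 were lower, beside 0.885% and 61.4% of all sequences. With a minimum of 500 counts, the medians of the H/ACA snoRNAs and of all sequences were both 0.19.

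Snora28, assigned in human to 18S rRNA, stood highest. Its count was 4769 in the control and 9374 in Kap1 KD, and it was the only one of the 6 that stayed at least 1.5-fold higher with totals of all listed counts as the scale. The log2 ratio was 1.63 (interval 1.58 to 1.68) with TMM and 0.82 with totals, and its share of the H/ACA counts was 2.32% in the control and 5.27% in Kap1 KD. Snora23, hosted by Ipo7, had 43 and 64 counts and a log2 ratio of 1.22 (interval 0.64 to 1.82). Snora68 had 40788 and 51233 counts and a log2 ratio of 0.98 (interval 0.96 to 1.0). Snora20 (214 and 234 counts), Snora3 (978 and 1001) and Snora44 (18645 and 18909) had log2 ratios of 0.78, 0.68 and 0.67. Raw counts of those 3 were nearly equal in the libraries, and their ratios turned below 0 with totals of all listed counts.

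The members at least 1.5-fold lower in Kap1 KD were Snora5c and Snora17. Snora5c, hosted by Tbrg4, had 797 counts in the control and 304 in Kap1 KD, a log2 ratio of -0.74 (interval -0.94 to -0.55). Snora17, hosted by Snhg7, had 10198 and 4130 counts, a log2 ratio of -0.65 (interval -0.71 to -0.60), and its share of the H/ACA counts was 4.96% in the control and 2.32% in Kap1 KD. Just inside 1.5-fold lay Snora41, with 674 and 290 counts and a log2 ratio of -0.56 (interval -0.77 to -0.37). Snora24 (4697 and 2448 counts) and Snora30 (1511 and 792 counts) had log2 ratios of -0.29 and -0.28. All 5 were also below 0 with each other scaling.

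**Figure D3:**
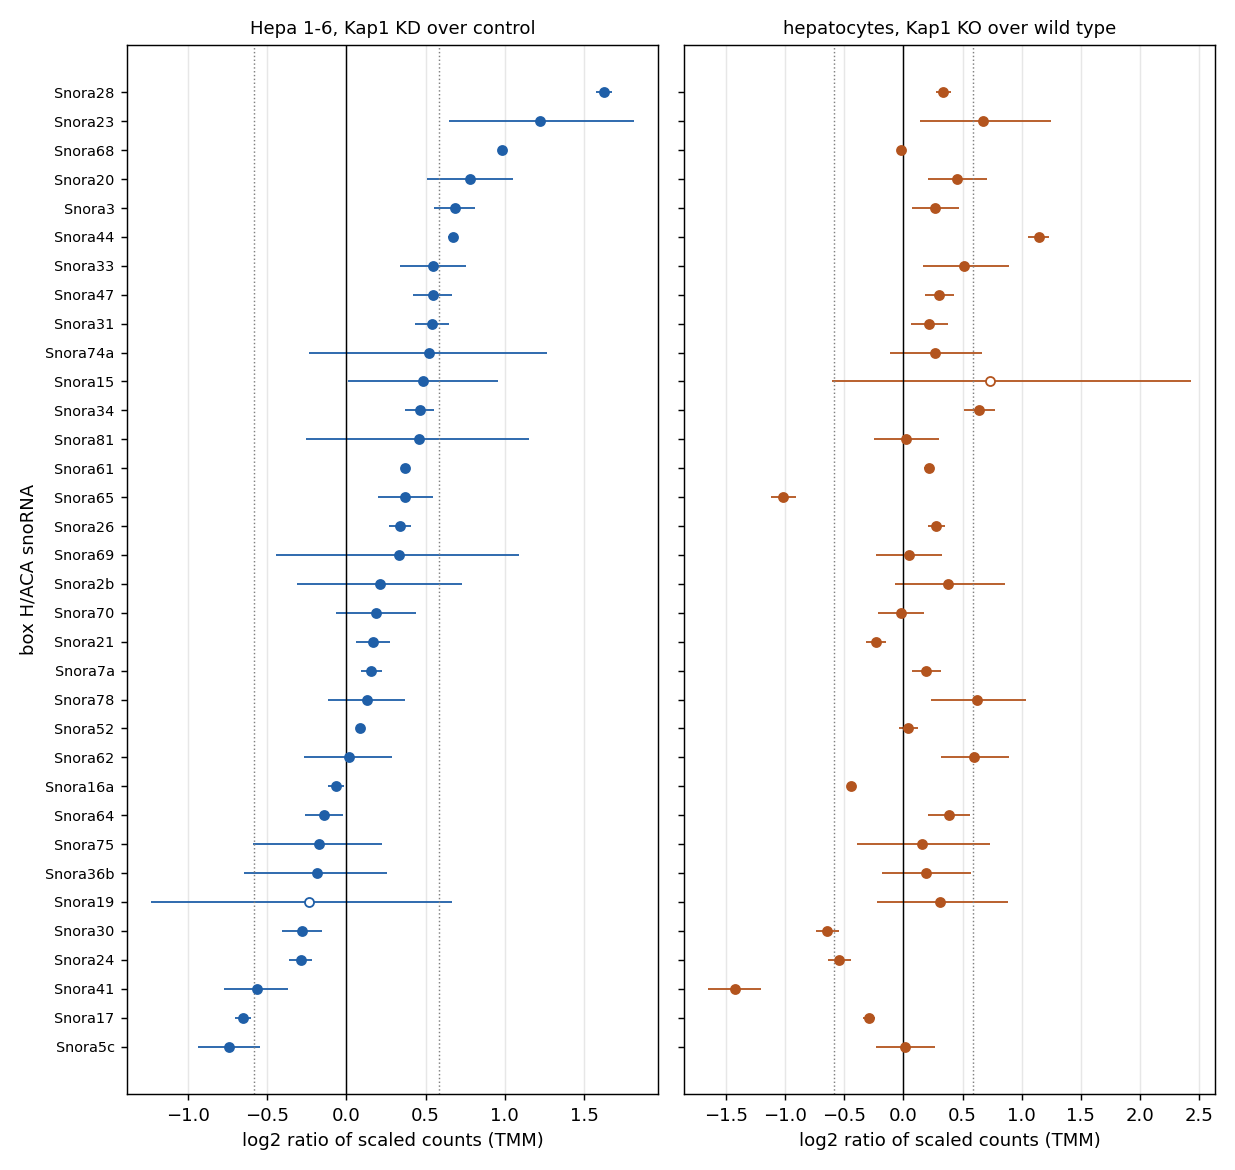
Log2 ratio of TMM-scaled counts for the 34 box H/ACA snoRNAs, Kap1 KD over control in Hepa 1-6 cells (left) and Kap1 KO over wild type in hepatocytes (right), with bars for the 95% counting interval, dotted lines at 1.5-fold and open points for members under 50 counts in the pair. Snora28 stands highest on the left at 1.63 and Snora44 on the right at 1.14 among the filled points, and Snora41 is lowest on the right at -1.43.

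For Kap1 KO against wild type in hepatocytes, 33 members passed the same minimum (Snora15 did not). The median log2 ratio of these 33 was 0.22, against -0.02 over all 261 sequences that passed, 1.10 for box C/D snoRNAs and -0.53 for the 166 tRNAs. At least 1.5-fold higher were 5 of 33, or 15.2% beside a background of 30.3%, and at least 1.5-fold lower were 3 of 33, or 9.09% beside a background of 30.7%. Within that background, 82.3% of box C/D snoRNAs and 13.9% of tRNAs were higher, and 1.61% and 45.8% were lower. With totals of all listed counts, none of the 33 was 1.5-fold higher and 28 were lower, beside 6.51% and 69.7% of all sequences. With a minimum of 500 counts the order of the medians turned, to 0.12 for H/ACA snoRNAs and 0.44 for all sequences. The gap between the medians of the snoRNA classes does not depend on scaling, and the median box C/D snoRNA stood above the median H/ACA snoRNA by 0.26 on the log2 scale in Hepa 1-6 cells and by 0.89 in hepatocytes. With a minimum of 500 counts these gaps were 0.41 and 0.99. No test could be made of either gap with 1 library per group.

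Snora44, assigned in human to 18S rRNA, had the highest ratio, with 1351 counts in wild type and 4842 in Kap1 KO. The log2 ratio was 1.14 (interval 1.06 to 1.23) with TMM and -0.02 with totals of all listed counts, and its share of the H/ACA counts was 1.83% in wild type and 4.31% in Kap1 KO. Snora23 (40 and 104 counts), Snora34 (664 and 1682), Snora78 (73 and 183) and Snora62 (143 and 352) had log2 ratios of 0.67, 0.64, 0.62 and 0.60. Like Snora44, these 4 turned below 0 with totals.

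Snora41, hosted by the elongation factor gene Eef1b2, was the lowest. It had 455 counts in wild type and 274 in Kap1 KO although the Kap1 KO library held more counts in all, a log2 ratio of -1.43 (interval -1.65 to -1.21), and its share of the H/ACA counts was 0.615% in wild type and 0.244% in Kap1 KO. Snora65, hosted by Rpl12 and assigned in human to 28S rRNA, had 1660 and 1330 counts and a log2 ratio of -1.02 (interval -1.12 to -0.91). Snora30, hosted by Srcap, had 1693 and 1755 counts and a log2 ratio of -0.65 (interval -0.74 to -0.55). Snora24 and Snora16a were next, with log2 ratios of -0.54 and -0.44. Snora41 and Snora65 were the only members whose raw count was lower in Kap1 KO than in wild type.

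Side by side, 32 members passed in both pairs. With TMM, 19 were above 0 in both, 5 below 0 in both and 8 had opposite signs. Snora44 and Snora23 were at least 1.5-fold higher in both pairs and none was 1.5-fold lower in both, beside 12.6% and 3.94% of all 254 sequences that passed in both. With totals neither of these members was 1.5-fold higher in either pair, and with a pseudocount of 5 Snora23 was at 0.58 in hepatocytes, just under 1.5-fold. No member was past 1.5-fold in opposite directions. Of the 19 above 0 in both, 12 had the counting interval above 0 in both pairs. The 5 below 0 in both were Snora16a, Snora41, Snora30, Snora24 and Snora17, each with its counting interval below 0 in both pairs. The share of H/ACA counts scales each library by its own H/ACA total. Judged by this share, 13 of all 34 members were higher in the Kap1-depleted library of both pairs. Lower in both were 7, namely those 5 with Snora65 and Snora21, and 14 differed in sign. These signs also depend on the scale, since a few members set the total. Snora16a held 32.4% in wild type and 25.5% in Kap1 KO, and Snora68 held 19.8% in the Hepa 1-6 control and 28.8% in Kap1 KD. Across the 32 members, the log2 ratios of the pairs had a Pearson correlation of 0.49 and a Spearman correlation of 0.54, a description of 1 library per group in which the points share library, depth and base composition.

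Features that the names do not use moved little with the ratios. The Spearman correlation of the log2 ratio with GC content was -0.12 in Hepa 1-6 cells and -0.14 in hepatocytes over 29 members, and with length it was -0.14 and -0.01 over 33. With the log2 count in the control library it was -0.07 in Hepa 1-6 cells and -0.46 in hepatocytes over 33 members, so the members with many counts in wild type hepatocytes tended to have lower ratios. That count is the ratio's own denominator. The ratio of shares in wild type hepatocytes to those in the Hepa 1-6 control had a Spearman correlation of -0.43 with GC content over 29 members, so members of low GC content tended to hold a larger share in hepatocytes, beside the change of cell type and depletion kit, whose parts in this were not tested.

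Members in ribosomal protein genes held 54.4% of the H/ACA counts in the Hepa 1-6 control and 31.3% in wild type hepatocytes, and those in non-coding hosts held 35.1% and 51.9%. Single members made up much of these shifts. Snora52 held 29.7% and 2.67%, and Snora16a held 3.87% and 32.4%. As shares of all H/ACA counts, Snora52 and Snora16a included, the other 10 members in ribosomal protein genes held 24.7% and 28.7%. The other 5 in non-coding hosts held 31.2% and 19.5%. Snora52 and Snora16a remain in those totals, so the shares of the other members move with them and do not show how the rest of a class changed. The median log2 ratio of the 11 members in ribosomal protein genes was 0.19 in Hepa 1-6 cells and 0.04 in hepatocytes, and that of the 6 in non-coding hosts was 0.25 and 0.24. It was 0.50 and 0.12 for the 4 members in other translation genes, and 0.21 and 0.30 for the 9 in other coding genes. Members of 1 host did not always move together. In Eif4a2, Snora81 had log2 ratios of 0.46 (interval -0.25 to 1.15) in Hepa 1-6 cells and 0.02 (interval -0.25 to 0.30) in hepatocytes. The box C/D snoRNA Snord2 of the same gene had 0.90 and 1.19, and only the second lay outside the interval of Snora81. In Rps12, Snora33 had 0.55 (interval 0.34 to 0.75) and 0.52 (interval 0.16 to 0.89). The box C/D snoRNA Snord100 had 0.09 and 0.70, and only the first lay outside the interval of Snora33. Both examples cross the snoRNA classes, whose medians differed. Among H/ACA members alone, Snora34 and Snora2b share a host and had 0.46 and 0.21 in Hepa 1-6 cells and 0.64 and 0.38 in hepatocytes. Snora16a and Snora44 of Snhg12 had -0.07 and 0.67 in Hepa 1-6 cells and -0.44 and 1.14 in hepatocytes.

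Kap1 mRNA was lower in the Kap1 KD samples of Hepa 1-6 cells, with 456 and 575 CPM (counts scaled to a fixed library total) of Trim28 in control and 106 and 78.9 in Kap1 KD. The log2 fold change was -2.48 ± 0.25 (SE, n = 2 per group), with an unadjusted p of 0.00021 in the edgeR quasi-likelihood test, and the adjusted p over all 14142 genes tested did not pass. It passed with DESeq2 and in each fit that left out 1 sample, where the log2 fold change lay between -2.71 and -2.27. By the edgeR test 0 of 14142 genes passed a 1.5-fold change with an adjusted p under 0.05 (0.0% called), 185 had an unadjusted p under 0.05 (1.31%), and DESeq2 called 3. That edgeR test did not use the replicate number. With the number as a block it called 631 genes, among them Trim28, though the labels do not say that a number marks a shared batch. Nothing in the sources says that the samples of a group were separate cultures, so the p-values measure only the spread between these samples.

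The proteins that bind H/ACA snoRNAs did not pass the test. Of 34 genes listed for core proteins, assembly factors, partners, RNA maturation, other pseudouridine synthases and telomerase, 33 were tested, and 0 passed the adjusted p and 0 had an unadjusted p under 0.05. Their median log2 fold change was 0.06, between -0.42 and 0.30, against -0.02 over all genes tested. Kap1 KD lay above control in both samples for 3 of the 33 and below for 1, so 29 overlapped, and over all genes 20.3% did not overlap. In the edgeR test with the replicate number as a block, 6 of the 33 had an adjusted p under 0.05, at changes under 1.5-fold, as had 3052 of all 14142 genes at any fold. Dkc1, the catalytic subunit, had 156 and 102 CPM in control and 152 and 93.9 in Kap1 KD, a log2 fold change of -0.07 ± 0.34. Nop10 had 116 and 116 CPM in control and 130 and 129 in Kap1 KD, with a log2 fold change of 0.15 ± 0.16. The remaining core proteins Nhp2 and Gar1 had log2 fold changes of 0.16 ± 0.25 and 0.04 ± 0.18. Tert, the telomerase reverse transcriptase, whose RNA partner carries an H/ACA domain, had 3.64 and 3.37 CPM in control and 2.75 and 2.50 in Kap1 KD, a log2 fold change of -0.42 ± 0.27.

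Host genes likewise did not pass. Of 27 hosts, 26 were tested, and 0 passed the adjusted p and 0 had an unadjusted p under 0.05. Their median log2 fold change was 0.11, between -0.38 (Snhg7) and 0.47 (Rps2). Kap1 KD lay above control in both samples for 3 hosts, below for 2 and overlapping for 21, beside 20.3% of all genes that did not overlap. In the edgeR test with the replicate number as a block, 14 of the 26 had an adjusted p under 0.05, at changes under 1.5-fold, as had 3052 of all 14142 genes at any fold. Eif5, the host of Snora28, had 212 and 132 CPM in control and 194 and 128 in Kap1 KD, a log2 fold change of -0.10 ± 0.33, where Snora28 itself had a log2 ratio of 1.63. Snhg12 had 12.0 and 6.59 CPM in control and 9.27 and 5.32 in Kap1 KD, a log2 fold change of -0.35 ± 0.44. Snhg7, the host of Snora17, had 5.91 and 2.40 CPM in control and 4.58 and 1.84 in Kap1 KD, a log2 fold change of -0.38 ± 0.64. Eef1b2 and Rplp2, hosts of Snora41 and Snora52, had log2 fold changes of 0.27 ± 0.20 and 0.21 ± 0.23. The spread within a group exceeded the difference between the groups for Dkc1, Eif5, Snhg12 and Snhg7, whose levels were lower in the replicate numbered 2 of both groups. Between same-numbered samples the log2 differences were -0.04 and -0.13 for Dkc1 and -0.13 and -0.05 for Eif5. They were -0.37 and -0.30 for Snhg12 and -0.36 and -0.37 for Snhg7. The ± values above do not take the replicate number into account, and the labels do not say that a number marks a shared batch.

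**Figure D4:**
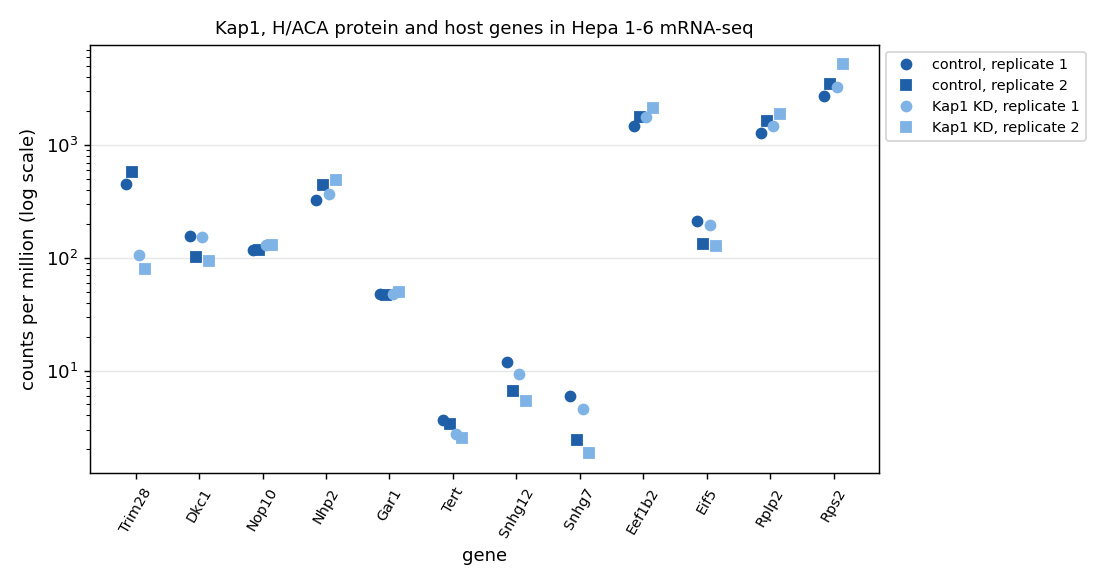
CPM (log scale) of Trim28, H/ACA protein genes and host genes in each of the 4 Hepa 1-6 mRNA-seq samples, control in dark and Kap1 KD in light blue, with circles for replicate 1 and squares for replicate 2. Trim28 is the one gene shown with a wide gap between the groups, and Dkc1, Eif5, Snhg12 and Snhg7 differ more between replicates than between groups.

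Across 29 members with a tested host, the host mRNA log2 fold change and the snoRNA log2 ratio in Hepa 1-6 cells had a Spearman correlation of -0.07. The host level in control (CPM per kilobase of exon) and the snoRNA count per base in the control library had one of -0.03. Members of 1 host share that host's value, and the mRNA and small RNA libraries were separate preparations. In these control libraries, the levels of spliced host transcripts and of the snoRNAs thus showed little relation. The correlation of the changes cannot decide whether they go together, since no host change passed the test and each snoRNA ratio came from 1 library per group.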

How the data were processed

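The authors deposited whole-number counts per tRNA or snoRNA sequence for 4 small RNA libraries and counts per Ensembl gene for 4 poly(A) samples (TopHat2 2.0.11, HTSeq 0.6.1 and mm9, per the submitters' processing notes). How small RNA reads were counted was not given in the sources used here. The deposited normalized signal, a count divided by 1 factor per library, was not used for results. Paired columns of each hepatocyte library held identical values and were counted once. Members and lists were chosen with earlier results of these data known. Small RNA counts plus 0.5 were scaled by TMM (edgeR 4.0.16, R 4.3.3), with at least 50 counts per pair, and no p was computed. The mRNA counts (41566888 to 53605115 per sample) were filtered with filterByExpr and tested with the edgeR quasi-likelihood test, Benjamini-Hochberg adjusted, with DESeq2 1.42.0 as an alternative. Tests were checked on simulated data. Named members were the 5 with most counts per library, the 5 highest and 5 lowest ratios per pair with at least 100 counts, and those past 1.5-fold in both pairs. Hosts of these members and pathway genes were named too (1 host is not reported here), and other members only with their values seen. Sequences came from the NCBIM37 genome at loci of the GENCODE M1 annotation, matched by symbol.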

Additional observations from a re-analysis of the deposited data

Results flagged for a closer look

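Snora65 was picked out because its log2 ratio lay on opposite sides of 0 in the Hepa 1-6 and hepatocyte pairs. Its counting intervals excluded 0 in both with TMM and with median-of-ratios scaling, and its ratios differed by at least 1.5-fold. With TMM, Snora21 (0.17 and -0.24) and Snora64 (-0.14 and 0.39) also had opposite signs with intervals excluding 0, but differed by less than 1.5-fold. For Snora65 the log2 ratio was 0.37 (interval 0.20 to 0.55) for Kap1 KD over control, with 603 and 497 counts in the Hepa 1-6 libraries. For Kap1 KO over wild type it was -1.02 (interval -1.12 to -0.91), with 1660 and 1330 counts in the hepatocyte libraries. Scaled by the totals of all listed counts, both were below 0, at -0.43 and -2.18. The difference between the pairs was not tested, since each group had 1 library. Its host Rpl12 is a ribosomal protein gene, and its share of the H/ACA counts was 0.293% and 0.279% in the Hepa 1-6 libraries and 2.25% and 1.18% in the hepatocyte libraries.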

How the results depend on the processing

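With 1 library per group, scaling decided the direction of the snoRNA ratios. Scaled by totals of all listed counts or by snoRNA totals, the median log2 ratio of the H/ACA snoRNAs became -0.47 or -0.50 in Hepa 1-6 cells, where 1 was then at least 1.5-fold higher and 16 lower with either, and -0.95 or -0.96 in hepatocytes, where 0 were higher and 28 lower with either. Of all sequences, 61.4% or 64.9% were then lower in Hepa 1-6 cells and 69.7% with either in hepatocytes. In Hepa 1-6 cells, Snora44 turned to -0.13 or -0.16, Snora20 to -0.026 or -0.053 and Snora3 to -0.12 or -0.15. In hepatocytes, Snora44 turned to -0.021 or -0.034, Snora34 to -0.52 or -0.53, Snora23 to -0.49 or -0.51, Snora62 to -0.57 or -0.58 and Snora78 to -0.54 or -0.55. Median-of-ratios scaling moved the hepatocyte median to 0.33. At a fold of 2 instead of 1.5, 2 members were higher and 0 lower in Hepa 1-6 cells, beside 3.83% and 2.65% of all sequences, and 1 was higher and 2 lower in hepatocytes, beside 18.4% and 15.7%. In hepatocytes 2 of the 22 members left by a minimum of 500 counts were at least 1.5-fold higher, beside 46.9% of all sequences, as were 2 of 33 with a pseudocount of 5, beside 28.4%.

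For mRNA, DESeq2 called 3 genes, and leaving out 1 sample called between 3 and 65 genes (65 without Kap1 KD replicate 1, 21 without either control, 3 without Kap1 KD replicate 2), the lone sample being assumed to vary like the other group. No such fit called a host or an H/ACA protein gene. Without 1 sample, the log2 fold change ran from -0.46 to 0.26 for Dkc1, -0.051 to 0.43 for Nhp2, -0.43 to 0.28 for Eif5, -0.81 to 0.15 for Snhg12 and -1.17 to 0.42 for Snhg7, the change of sign coming without control replicate 1 or Kap1 KD replicate 2. For Rps2 and Rplp2 it kept its sign and ran from 0.10 to 0.76 and from 0.025 to 0.41. For Dkc1 the values with a sign turned were 0.26 and 0.24, for Nhp2 -0.051 and -0.050, for Eif5 0.28 and 0.18, for Snhg12 0.15 and 0.01 and for Snhg7 0.42 and 0.15. A fit with the replicate number as a block called 631 genes, among them Trim28 and no host or H/ACA protein gene, although 6 of 33 H/ACA protein genes and 14 of 26 hosts had an adjusted p under 0.05 at changes under 1.5-fold, as had 3052 of all 14142 genes at any fold. The labels do not say that a number marks a shared batch, though same-numbered samples deviated together (correlation 0.86 across genes). Between same-numbered samples the log2 difference was -0.36 and -0.37 for Snhg7 and -0.37 and -0.30 for Snhg12.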
